A study of Mus musculus with 2 samples.

Results

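The vascular endothelial growth factor (VEGF) family was examined in embryonic mouse pituitaries with and without Dyrk2, a protein kinase gene. It comprised 10 of the 55401 genes in the deposited tables: the ligand genes Vegfa, Vegfb, Vegfc, Vegfd and Pgf, the receptor genes Kdr, Flt1 and Flt4, and the neuropilin genes Nrp1 and Nrp2. They were taken by name, through the gene identifiers and the GENCODE M21 symbols, and all 10 were found. The libraries were a Dyrk2-KO library (Dyrk2-/-) and a WT library, each from total RNA of pituitaries at embryonic day E12.5, with poly(A)-selected and stranded preparation. No other allele or agent is named in the labels. Strain, sex and the number of pituitaries behind a library are not stated in the labels. The title of the series names primary cilia, cell types and vessel growth in the forming pituitary as its subject. Each genotype had 1 library, so no difference could be checked against replicates and no p-value is given. All intervals are exact 95% intervals that cover counting error only.

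VEGF ligands are secreted dimers that bind tyrosine kinase receptors on endothelial cells. VEGF-A, which drives the sprouting of blood vessels, signals mainly through the receptor encoded by Kdr. Flt1 encodes a receptor that binds VEGF-A, VEGF-B and the placental growth factor encoded by Pgf, and that also acts as a trap for VEGF-A. VEGF-C and VEGF-D form a separate branch: they are cut to their mature forms outside the cell and signal through the receptor encoded by Flt4, which marks lymphatic endothelium and sprouting or fenestrated vessels. Neuropilins are co-receptors that bind VEGF as well as class III semaphorins, and neurons and mesenchyme express them in addition to vessels. The pituitary is supplied by fenestrated capillaries that grow into the gland from the surrounding mesenchyme.

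The values correspond to about 20114250 counted fragments in the KO library and 20045450 in the WT library. Members rested on 64 to 3931 fragments. Dyrk2 itself was at 1.93 FPKM, the number of fragments relative to exon length and to all fragments counted in that library, in the KO library and 11.5 FPKM in the WT library. The labelled tissue was checked with markers of pouch epithelium, of which all 10 were measured: the transcription factor gene Pitx1 stood at 227 FPKM in the KO library and 250.4 FPKM in the WT library. Xist, the transcript of the inactive X chromosome, was at 14.8 FPKM in the KO library and 74.98 FPKM in the WT library, and the Y-linked gene Ddx3y at 14.95 FPKM in the KO library and 5.83 FPKM in the WT library. The libraries thus differ in sex composition as well as in genotype, and these cannot be told apart. Fewer cells of a type and less RNA per cell cannot be told apart either in RNA of whole pituitaries.

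All 10 members passed the filter, which asked for 1 FPKM or more in either library. A difference was counted when the ratio of KO to WT, after 0.5 FPKM was added to both, reached 1.5-fold. The ligand gene Vegfd was lower by this measure, the receptor gene Flt4 was higher, and the other 8 members lay within 1.5-fold. Over all 14000 genes compared, 4.56% were lower and 2.06% higher by the same measure. The median log2 ratio (KO over WT, 0.5 FPKM added) was -0.21 over the members and -0.02 over all genes compared. The counting interval of the ratio lay below 1 for 6 members, against 22.3% of all genes compared, and above 1 for 2 members, against 17.7%. Whether an interval excludes 1 also depends on fragment number, in which the genes compared were not matched to the members. By role, 4 of 5 ligand genes had a log2 ratio below 0, all 3 receptor genes had one above 0, and both neuropilin genes had one below 0. With a median of -0.02 over all genes compared, either sign was common, and the ratio intervals of Vegfb and Flt1 held 1.

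**Figure D1:**
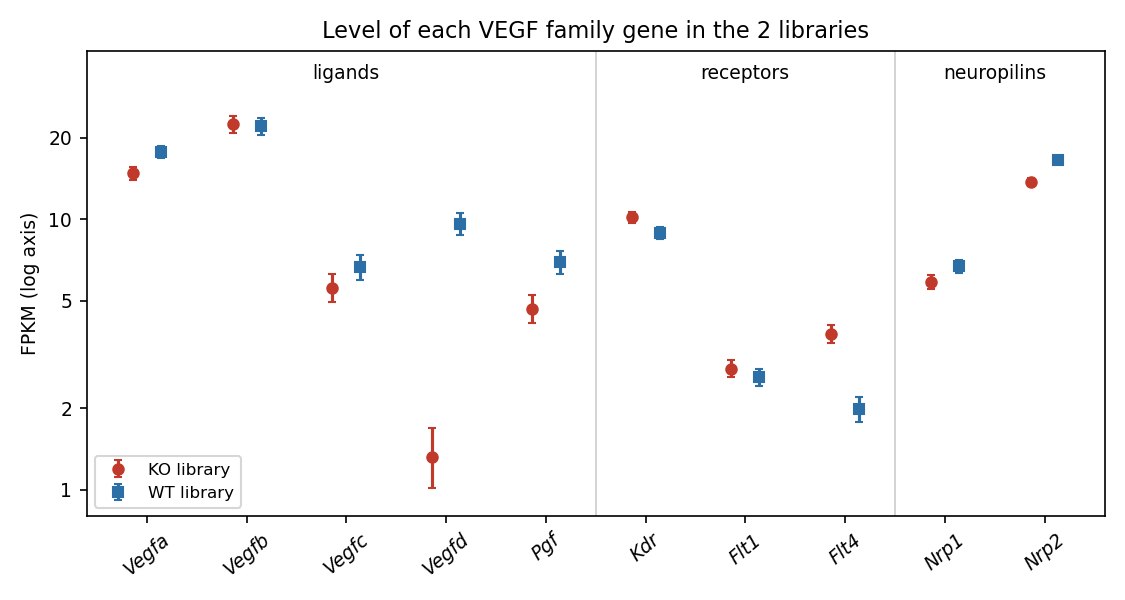
Level of each VEGF family gene in FPKM on a log axis, with the KO library (circles) left of the WT library (squares) and bars for the 95% Poisson counting interval. Vegfd stands at 1.32 FPKM in the KO library and 9.63 FPKM in the WT library, and Flt4 at 3.76 FPKM in the KO library and 1.98 FPKM in the WT library.

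Vegfd, which encodes a ligand of the Flt4 receptor, differed furthest of the members. It measured 1.32 FPKM (95% Poisson interval 1.02 to 1.69, 64 fragments) in the KO library and 9.63 FPKM (8.78 to 10.6, 465 fragments) in the WT library. The intervals of the libraries do not meet. The KO library held 13.7% of the WT level (Clopper-Pearson interval 10.4% to 17.8%), a 7.30-fold lower level (5.604 to 9.62). Its log2 ratio of -2.48 ranked 24 from the lowest among the 14000 genes compared. In the WT library Vegfd was above its closest relative Vegfc by a factor of 1.45, while in the KO library it was at 0.237 of the Vegfc level. The quotient of these ratios, KO over WT, was 0.164 (exact conditional interval 0.119 to 0.224).

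Vegfd (ENSMUSG00000031380) lies on the plus strand of chromosome X from 164373378 to 164402650 in GRCm38, with 7 exon blocks in GENCODE M21. No annotated gene overlaps it. Of the nearest protein-coding genes, Pir was under the filter and Piga was within 1.5-fold. Pir, which ends 0.367 kb before Vegfd, measured 0.49 FPKM in the KO library and 0.43 FPKM in the WT library. The interval of its ratio, 0.761 to 1.72, held 1 and also reached past 1.5-fold. Piga, an enzyme gene of membrane anchor synthesis that begins 17.1 kb beyond it, measured 3.81 FPKM in the KO library and 4.17 FPKM in the WT library, with an interval of the ratio from 0.806 to 1.03. Over the 520 X-linked genes compared, the median log2 ratio was -0.01. Among them Vegfd ranked 2 from the lowest, after the microRNA gene Mir421 and before Xist.

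The promoter windows of Vegfd, Vegfc and Flt4 are shown because Vegfd and Flt4 were the members beyond 1.5-fold and Vegfc is the paralog of Vegfd that was not. Each is the 250 bases before the RefSeq transcription start on the plus strand of GRCm38.p6, at chrX:164373272-164373521 for Vegfd, chr8:54077282-54077531 for Vegfc and chr11:49609429-49609678 for Flt4. GENCODE M21 sets the first base of Vegfd at 164373378 and of Flt4 at 49609263, upstream of the RefSeq starts, so by that annotation part of the Vegfd window and all of the Flt4 window lie inside the gene. Capitals mark CpG dinucleotides, the sites of DNA methylation.
Vegfd: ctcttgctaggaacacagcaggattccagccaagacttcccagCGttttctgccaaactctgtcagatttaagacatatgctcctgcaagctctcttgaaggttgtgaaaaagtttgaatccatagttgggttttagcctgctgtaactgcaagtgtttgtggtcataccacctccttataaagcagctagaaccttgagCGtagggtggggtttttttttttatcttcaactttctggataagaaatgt
Vegfc: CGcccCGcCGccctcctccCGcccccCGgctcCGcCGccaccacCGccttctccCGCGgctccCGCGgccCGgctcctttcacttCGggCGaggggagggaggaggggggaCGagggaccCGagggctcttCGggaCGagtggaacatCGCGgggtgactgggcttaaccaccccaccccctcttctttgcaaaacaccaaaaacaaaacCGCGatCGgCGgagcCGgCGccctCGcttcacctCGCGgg
Flt4: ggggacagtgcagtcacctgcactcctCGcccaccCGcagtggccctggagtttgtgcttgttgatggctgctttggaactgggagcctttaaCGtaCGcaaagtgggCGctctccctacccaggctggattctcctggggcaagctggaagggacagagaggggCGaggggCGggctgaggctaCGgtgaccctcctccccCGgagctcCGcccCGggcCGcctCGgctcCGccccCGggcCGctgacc
The Vegfd window held 2 CpG dinucleotides and 42.4% G and C, the Vegfc window 30 and 71.6%, and the Flt4 window 16 and 68.4%. RefSeq gave 12 such windows for the 10 members. The 11 of the other 9 genes held 7 to 32 CpG dinucleotides and 59.2% to 76.4% G and C, so Vegfd lay below all of them on both counts. Over all 32817 windows of this length the medians were 6 CpG dinucleotides and 52.4% G and C.

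Short motifs were searched in the same 250 bases on both strands, and none of the motifs contains another. The Vegfd window held a match to the TATA box TATAAA from 73 to 68 bases before the RefSeq start, which 12.4% of all windows hold. It also held a match to AGATAA, the site of GATA factors, from 29 to 24 bases before that start, held by 9.99%. By the GENCODE start, both matches lie inside the gene. Neither the Vegfc nor the Flt4 window held a match to any of the 6 motifs. The AP-1 motif TGANTCA (6.75% of all windows), the ETS motif CCGGAAG (6.90%) and the motif TGGGTGGTC of GLI factors (0.225%) matched no member. The core ACGTG of the hypoxia response element (16.6%) matched only the second window of Vegfa, at an inner start. Of the other members, Vegfa held AGATAA and Flt1 held TATAAA. Matches describe letters in these windows and not bound sites.

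Vegfc, the other ligand of the Flt4 receptor, measured 5.56 FPKM (4.92 to 6.26) in the KO library and 6.64 FPKM (5.94 to 7.40) in the WT library. The Poisson intervals overlap, and the ratio was 0.837 (0.711 to 0.987). The summed level of Vegfc and Vegfd was 6.88 FPKM in the KO library and 16.3 FPKM in the WT library, of which Vegfd made up 19.2% in the KO library and 59.2% in the WT library. Most of the gap between the sums was the gap in Vegfd.

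Markers of pericytes and smooth muscle were in part lower beside Vegfd, and those of mesenchyme went both ways. Over all genes compared, 4.56% were lower and 2.06% higher by at least 1.5-fold. Of 12 listed markers of pericytes and smooth muscle, 9 were measured and 4 were lower by at least 1.5-fold, with a median log2 ratio of -0.49 and a summed level of 78.3 FPKM in the KO library and 125.4 FPKM in the WT library. Acta2, the smooth muscle actin, was at 1.58 FPKM in the KO library and 25.65 FPKM in the WT library. Mesenchyme markers were measured in full: 6 of 16 were lower and 4 higher by that much, the median was -0.46, and the summed level was 169.65 FPKM in the KO library and 246 FPKM in the WT library. Alx1, a regulator of frontonasal mesenchyme, was higher, at 4.29 FPKM in the KO library and 0.18 FPKM in the WT library, as was Osr2, a regulator of palate mesenchyme, at 2.77 FPKM in the KO library and 0.18 FPKM in the WT library. Tcf21 was the gene of these lists with no fragment in 1 library, at 0 in the KO library and 1.61 FPKM in the WT library. The part of these cells in the Vegfd level was not tested.

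Vegfa, the main ligand of blood vessel sprouting, measured 14.8 FPKM (13.98 to 15.6) in the KO library and 17.8 FPKM (16.9 to 18.7) in the WT library. The intervals do not overlap, and the level was 1.20-fold lower in the KO library (1.12 to 1.30). The gene (ENSMUSG00000023951) is on chromosome 17, minus strand, from 46016993 to 46032369 and has 13 annotated transcripts. Its splice forms, which differ in how firmly they are held in the matrix, were not analysed here.

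Pgf, the ligand gene for placental growth factor, measured 4.66 FPKM (4.12 to 5.25) in the KO library and 6.94 FPKM (6.28 to 7.65) in the WT library. It was 1.49-fold lower by the plain ratio (1.27 to 1.74). After 0.5 FPKM was added, its log2 ratio was -0.53, inside the 1.5-fold line. Vegfb, a ligand of Flt1 with little effect on vessel sprouting, was the most abundant member in each library. It measured 22.5 FPKM (20.9 to 24.2) in the KO library and 22.1 FPKM (20.5 to 23.8) in the WT library, and the interval of the ratio, 0.915 to 1.13, held 1. Vegfb lies on chromosome 19 from 6982473 to 6987651 and Pgf on chromosome 12 from 85166635 to 85177790.

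**Figure D2:**
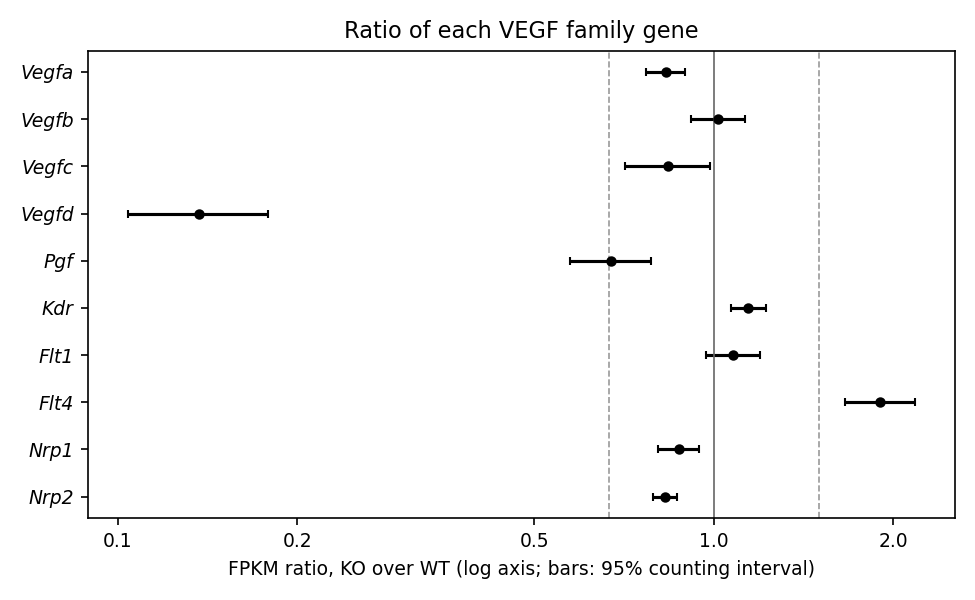
Plain ratio of FPKM, KO over WT, for each VEGF family gene on a log axis, with 95% Clopper-Pearson counting intervals. The solid line is equality and the dashed lines are 1.5-fold. Vegfd stands alone at 0.137, Flt4 is at 1.899, and the interval of Pgf spans the lower dashed line.

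Among the receptors Flt4 stood apart from Kdr and Flt1. Flt4 (ENSMUSG00000020357), on the plus strand of chromosome 11 from 49609263 to 49652739, measured 3.76 FPKM (3.47 to 4.07, 623 fragments) in the KO library and 1.98 FPKM (1.77 to 2.21, 327 fragments) in the WT library. The level was 1.899 times that of the WT library (1.66 to 2.18), a log2 ratio of 0.78 that ranked 183 from the highest. Kdr, the chief signalling receptor for VEGF-A, measured 10.2 FPKM (9.71 to 10.6) in the KO library and 8.91 FPKM (8.48 to 9.36) in the WT library, a ratio of 1.14 (1.07 to 1.22). Flt1 measured 2.80 FPKM (2.61 to 3.01) in the KO library and 2.60 FPKM (2.41 to 2.80) in the WT library, and its ratio of 1.08 (0.971 to 1.20) did not exclude 1. The soluble form of Flt1 was not analysed apart from the whole gene. The ratio of Flt4 to Kdr was 0.370 in the KO library and 0.222 in the WT library, a quotient of 1.66 (1.43 to 1.94), whereas that of Flt1 to Kdr gave a quotient of 0.943 (0.834 to 1.07).

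Kdr and Flt1 are on chromosome 5, minus strand, Kdr from 75932827 to 75978458 and Flt1 from 147561604 to 147726011. The nearest protein-coding neighbours of Flt4, Olfr1380 before it and Scgb3a1 beyond it, were at 0 in both libraries. The next gene beyond, Cnot6, which is transcribed from the other strand and was read after the values were seen, measured 44.0 FPKM in the KO library and 44.1 FPKM in the WT library.

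Receptor levels were set against genes of the cells that carry them. All 23 endothelial markers were measured and none reached 1.5-fold after 0.5 FPKM was added. Of all genes compared, 4.56% were lower and 2.06% higher by that measure. By the plain ratio Sox17 was past 1.5-fold lower, at 0.6 (0.462 to 0.774). Log2 ratios were above 0 for 16 of the 23 markers. The median of the 23 was 0.13, against -0.02 over all genes compared. Their summed level was 223 FPKM in the KO library and 203 FPKM in the WT library. Against the endothelial cadherin gene Cdh5, Kdr gave a quotient, KO over WT, of 0.981 (0.896 to 1.07) and Flt1 one of 0.925 (0.821 to 1.04). Flt4 against Cdh5 gave 1.63 (1.41 to 1.89), and against the adhesion gene Pecam1 1.68 (1.44 to 1.97). Kdr and Flt1 thus kept their ratio to Cdh5 within counting error, and Flt4 did not. Cdh5 and Pecam1 were themselves among the 16 markers above 0. The receptors were not set against the 7 markers below 0, so the quotients hold for Cdh5 and Pecam1 only.

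Lymphatic markers were uneven beside Flt4. Of 7 listed, 4 passed the filter. None of these 4 reached 1.5-fold after 0.5 FPKM was added, and their median was 0.04. Prox1, the regulator of lymphatic identity, which epithelial and neural progenitors also express, measured 2.11 FPKM in the KO library and 1.36 FPKM in the WT library, a plain ratio of 1.55 (1.31 to 1.84). Lyve1, a hyaluronan receptor of lymphatic vessels and macrophages, was under the filter. It measured 0.77 FPKM (45 fragments) in the KO library and 0.21 FPKM (12 fragments) in the WT library. Its plain ratio was 3.67 (1.94 to 7.76), and its log2 ratio after 0.5 FPKM was added was 0.84. The chemokine gene Ccl21a had 1 fragment in the KO library and 0 in the WT library. Nr2f2, a regulator of venous and lymphatic endothelium that mesenchyme also expresses, went the other way, at 8.14 FPKM in the KO library and 11.9 FPKM in the WT library (interval of the ratio 0.641 to 0.735). Reln, under the filter, was at 0.43 FPKM in the KO library and 0.57 FPKM in the WT library (0.626 to 0.907). The integrin gene Itga9 was at 9.16 FPKM in each library, and Pdpn, the most abundant of the list, which epithelium also expresses, at 29.3 FPKM in the KO library and 27.7 FPKM in the WT library (0.968 to 1.15). The list summed to 49.9 FPKM in the KO library and 50.9 FPKM in the WT library. Flt4 against Prox1 gave a quotient of 1.22 with an interval that held 1 (0.984 to 1.53). Prox1 was chosen after its values were seen and had the highest ratio of the 4 markers past the filter. Flt4 was not set against the other lymphatic markers, so this quotient does not speak for the list. The part of lymphatic cells in the Flt4 level was not tested.

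Nrp2, the neuropilin that pairs with Flt4 in lymphatic and venous endothelium, measured 13.7 FPKM (13.2 to 14.2) in the KO library and 16.6 FPKM (16.0 to 17.1) in the WT library. Nrp1, the co-receptor of Kdr, measured 5.85 FPKM (5.52 to 6.20) in the KO library and 6.70 FPKM (6.34 to 7.07) in the WT library. Both were slightly lower in the KO library, Nrp2 1.21-fold (1.15 to 1.27) and Nrp1 1.15-fold (1.06 to 1.24). The quotient of Nrp1 to Nrp2, KO over WT, was 1.06 with an interval that held 1 (0.962 to 1.16). Nrp2 lies on chromosome 1 from 62703285 to 62818695 and Nrp1 on chromosome 8 from 128358604 to 128503363. Nrp1 contains the microRNA gene Mir1903, which was at 0 in both libraries, and the genes that overlap Nrp2 share no exon base with it.

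The order of levels differed between the libraries in the places of Vegfd, Flt4 and Pgf. In the KO library it ran from Vegfb over Vegfa, Nrp2, Kdr, Nrp1, Vegfc, Pgf, Flt4 and Flt1 to Vegfd. The pairs Vegfa and Nrp2, Nrp1 and Vegfc, and Vegfc and Pgf had overlapping intervals there. In the WT library Vegfd was in place 4, after Vegfb, Vegfa and Nrp2 and level with Kdr within counting error, and Flt4 was the lowest member. Pgf stood below Nrp1 and Vegfc in the KO library, where its interval did not meet that of Nrp1, and above both in the WT library, where neighbouring intervals overlapped. The intervals of Vegfa and Nrp2 overlapped in the WT library as well.

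The makeup of the ligands and receptors shifted accordingly. Of the summed FPKM of the 5 ligand genes, 48.8 in the KO library and 63.1 in the WT library, Vegfd took 2.71% in the KO library and 15.3% in the WT library. Vegfb took 46.0% in the KO library and 35.0% in the WT library. Of the receptor genes, which summed to 16.7 FPKM in the KO library and 13.5 FPKM in the WT library, Flt4 took 22.5% in the KO library and 14.7% in the WT library. Vegfc and Vegfd together stood at 1.83 times the Flt4 level in the KO library and 8.22 times in the WT library. Vegfa stood at 1.45 times the Kdr level in the KO library and 1.998 times in the WT library, a quotient of 0.727 (0.658 to 0.805).

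**Figure D3:**
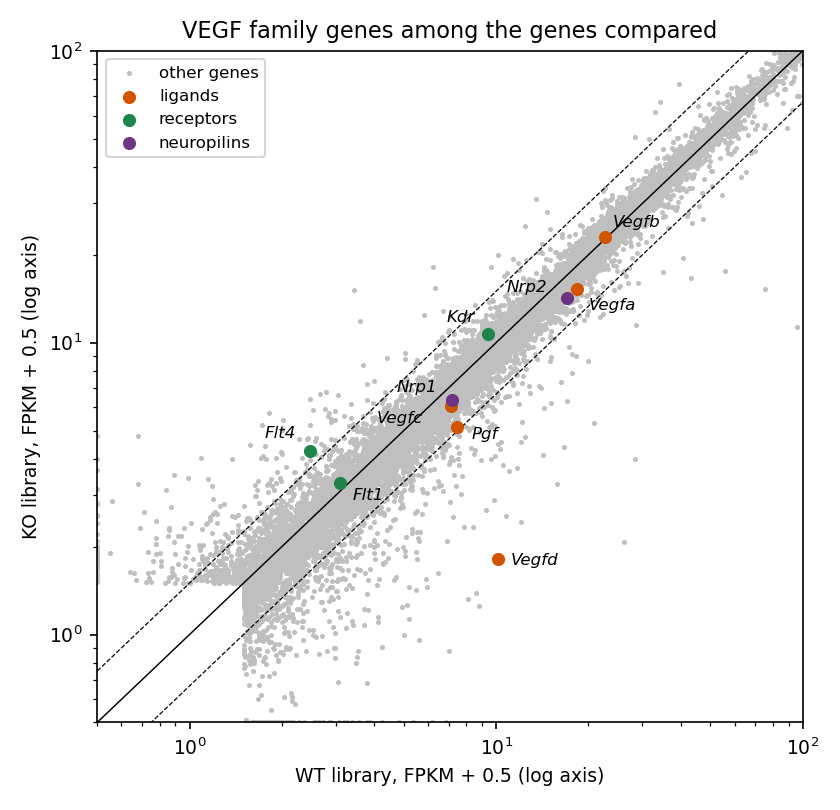
FPKM + 0.5 in the KO library (vertical) against the WT library (horizontal), both on log axes, for genes with a symbol that reached 1 FPKM in either library; levels over 100 are not drawn. The solid line is equality and the dashed lines are 1.5-fold. Vegfd lies below the lower dashed line with a log2 ratio of -2.48 and Flt4 above the upper one with 0.78, while the other 8 members lie between.

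Genes that act around these ligands and receptors were mostly within 1.5-fold, the measure by which 4.56% of all genes compared were lower and 2.06% higher. Of the 10 genes of oxygen sensing, which control Vegfa through hypoxia-inducible factors, all were measured and none reached 1.5-fold, with Hif1a at 41.1 FPKM in the KO library and 39.1 FPKM in the WT library. Of 30 signal transducers of the receptors 29 were measured and 1 was lower: Gab1, an adaptor of Kdr signalling, stood at 17.5 FPKM in the KO library and 26.6 FPKM in the WT library (interval of the ratio 0.619 to 0.698). The medians were -0.02 and 0.01.

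Of 10 genes that cut VEGF-C and VEGF-D or aid their cutting, 6 were measured and 1 was higher: Plau, a urokinase gene, at 2.48 FPKM in the KO library and 1.14 FPKM in the WT library. The protease gene Adamts3, which cleaves VEGF-C, was within 1.5-fold at 1.08 FPKM in the KO library and 1.17 FPKM in the WT library. Its cofactor gene Ccbe1 was near 0, at 0.04 FPKM in the KO library and 0.08 FPKM in the WT library. The median of the list was -0.16. Of all genes compared, 2.06% were higher by at least 1.5-fold.

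Endothelial genes known to be induced by VEGF split. Of 16 listed, 15 were measured, and the median was 0.05. By at least 1.5-fold, 2 were lower and 1 was higher, against 4.56% and 2.06% of all genes compared. Angpt2, a ligand of the Tek receptor, measured 4.06 FPKM in the KO library and 9.84 FPKM in the WT library (interval of the ratio 0.359 to 0.472). Dll4, the Notch ligand of sprouting tip cells, measured 1.76 FPKM in the KO library and 3.13 FPKM in the WT library (0.451 to 0.694). Kcne3, a potassium channel subunit of tip cells, was the higher one, at 1.65 FPKM in the KO library and 0.84 FPKM in the WT library (1.24 to 3.15).

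Of 17 genes that hold, release or counter VEGF outside the cell, all were measured and 3 were lower: the gelatinase gene Mmp9 at 0.10 FPKM in the KO library and 1.17 FPKM in the WT library, the thrombospondin gene Thbs2 at 1.65 FPKM in the KO library and 5.07 FPKM in the WT library, and Htra1 at 0.36 FPKM in the KO library and 1.52 FPKM in the WT library. None was higher by 1.5-fold, and the median was -0.21. Among all genes compared, 4.56% were lower and 2.06% higher by that much. Among 12 semaphorins and plexins that share the neuropilins, 10 were measured and Sema3g, a vascular semaphorin, was lower, at 1.55 FPKM in the KO library and 3.98 FPKM in the WT library, with a list median of 0.02. In the related platelet-derived growth factor branch, 8 of 9 were measured with a median of -0.22. Its receptor gene Pdgfrb measured 8.5 FPKM in the KO library and 17.7 FPKM in the WT library, and its ligand gene Pdgfc 18.6 FPKM in the KO library and 11.99 FPKM in the WT library.

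**Figure D4:**
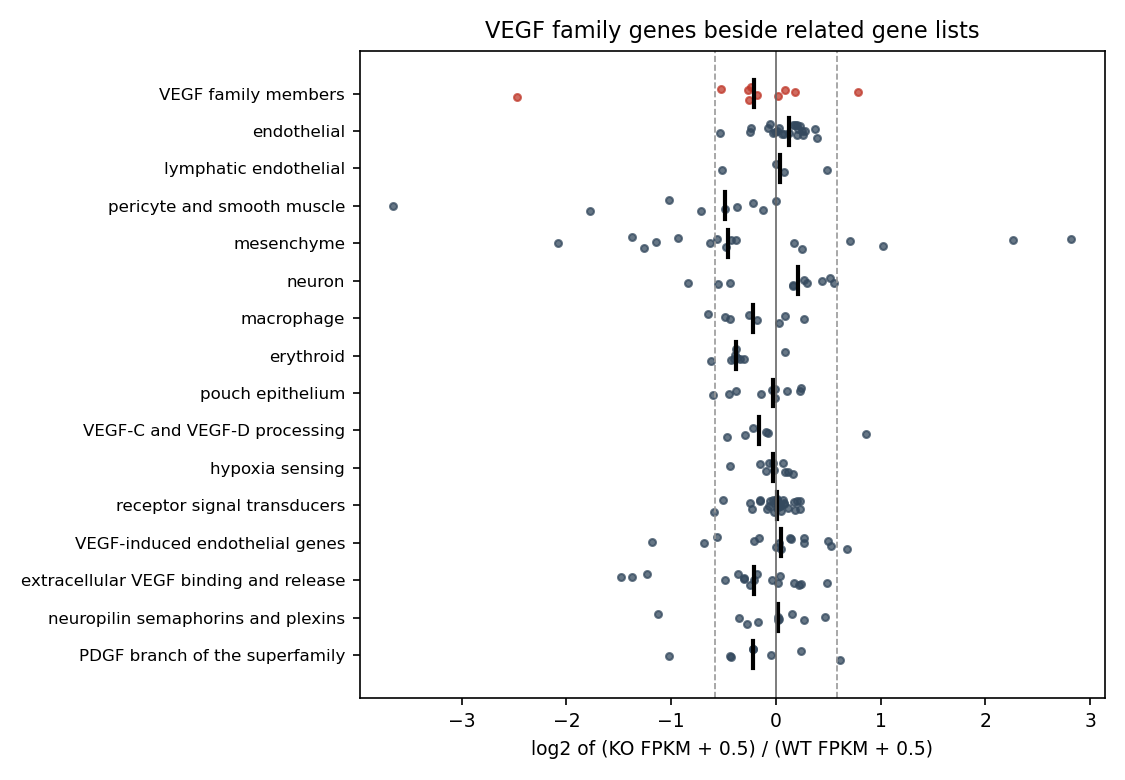
Log2 ratio of KO to WT, after 0.5 FPKM was added to both, for the 10 VEGF family genes and for genes of 15 related lists that passed the filter. Each point is a gene, the black bar is the median of the row, the solid line is equality and the dashed lines are 1.5-fold. The members have a median of -0.21, the endothelial list 0.13 and the list of pericytes and smooth muscle -0.49.

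The other lists of cell types that the tissue could hold were read for the neuropilins and receptors, which neurons, macrophages and blood cells can carry. By the 1.5-fold measure, 4.56% of all genes compared were lower and 2.06% higher. Of the neuron markers all 10 were measured, 1 was lower and the median was 0.21. Of the macrophage markers 8 of 9 were measured, 1 was lower and the median was -0.22. Of the erythroid markers 9 of 11 were measured, 1 was lower and the median was -0.38. The 10 markers of pouch epithelium had 1 lower gene and a median of -0.03. The part of these cells in the levels of the members was not tested.

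The protein-coding genes nearest to Vegfd and Flt4 in the plane of the 2 libraries were picked by distance on the log2 scale with 0.5 FPKM added. The nearest to Vegfd were Cygb, a globin gene of fibroblast-like cells, at 1.83 FPKM in the KO library and 7.90 FPKM in the WT library, the ion channel gene Asic4 at 0.89 FPKM in the KO library and 8.07 FPKM in the WT library, and Dyrk2, at distances of 0.447, 0.458 and 0.485. The nearest to Flt4 were Cpa4, Car14 and Gm49450, at distances of 0.0731, 0.105 and 0.118. Likeness over 2 libraries describes similar values only.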

How the data were processed

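Per the labels, poly(A)-selected stranded libraries were made from total RNA of E12.5 pituitaries, 1 per genotype. The authors deposited FPKM per Ensembl gene with the summed exon length, per the file headers. The submitters' processing notes name cutadapt 1.9.1, HISAT2 2.0.1 and the build GRCm38. The counting tool, its use of strand and the annotation are not given there. The product of FPKM and exon length has the same total in both tables, so values are relative to all counted fragments, and abundant genes can shift the others.

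The comparison used FPKM as deposited. Fragments were recovered as the library total that makes FPKM times length whole: all 1372 values checked in the KO library and all 1512 in the WT library, of at most 100 fragments and with rounding error under 0.05, came out whole within 0.1. They served for exact Poisson, Clopper-Pearson and conditional intervals (SciPy 1.17.1, Python 3.11.15), which cover counting error only. No count model was used. Symbols and coordinates came from GENCODE M21 (GRCm38) by identifier; 55141 of 55401 matched, and exon lengths of all 10 members equalled those of M21. Promoters came from RefSeq (GRCm38.p6). The steps were tested on simulated data.

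The members and the 15 lists were chosen with earlier results of these data known. Names in the text follow this rule: the members, list genes beyond 1.5-fold (up to 6) or highest in level (2), and the nearest neighbours and most alike genes (3) of members beyond 1.5-fold. Not all such genes are printed. Adamts3, Ccbe1, Prox1, Lyve1, Ccl21a, Reln, Itga9, Pecam1, Cnot6, Bmx and Mir421 were chosen after their values were seen. Alternatives were pseudocounts of 0.1 and 2 FPKM, a filter of 5 FPKM and none, and 3 scalings. A plain ratio was added after the data were seen.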

Additional observations from a re-analysis of the deposited data

How the results depend on the processing

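No replicate could be left out. No paired analysis was possible because each genotype has only 1 library. Vegfd was the member at least 1.5-fold lower under all 8 alternatives. Flt4 was the member at least 1.5-fold higher under 6 of them. The count of higher members was 0 with a pseudocount of 2 FPKM, which pulls the log2 ratio of Flt4 to 0.53 and that of Vegfd to -1.81, and 0 with a filter of 5 FPKM, which leaves 8 members and takes out Flt4 and Flt1. As log2 values, the ratio of Vegfd ranged from -2.87 to -1.81, that of Flt4 from 0.53 to 0.93 and that of Pgf from -0.57 to -0.42. The scalings multiplied the KO library by 0.997 to 1.02, and no member's ratio turned its sign under any alternative. A filter leaves a ratio as it is, and an equal pseudocount cannot turn its sign. Of the 78 alternative values of single members, 76 stayed within counting error of the reported one. Those under a changed filter were bound to do so. So were those under the scalings, because factors of 0.997 to 1.02 are smaller than the counting error of every member's ratio. The other 2 were those of Vegfd and Flt4 with a pseudocount of 2 FPKM. Depth limits Vegfd in the KO library most, at 64 fragments. The spread between embryos, dissections and preparations is not known from 1 library per genotype.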

Other observations

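Bmx, which encodes a cytoplasmic tyrosine kinase of arterial endothelium and is the second protein-coding gene before Vegfd at a gap of 115 kb, was also lower in the KO library from a low level. It measured 0.14 FPKM in the KO library and 0.48 FPKM in the WT library, with an interval of the ratio from 0.125 to 0.646. Pir, which lies between Bmx and Vegfd, had a ratio interval from 0.761 to 1.72, which holds 1. Ptprb, a phosphatase gene of vascular endothelium, measured 1.41 FPKM in the KO library and 2.22 FPKM in the WT library, and Epas1, a hypoxia-inducible factor gene strongly expressed in endothelium, 5.50 FPKM in the KO library and 7.62 FPKM in the WT library. Both lay within 1.5-fold after 0.5 FPKM was added, with intervals of the ratio from 0.557 to 0.724 for Ptprb and from 0.649 to 0.801 for Epas1. Sox17, a regulator of arterial endothelium, was the lowest of the endothelial list, at 1.02 FPKM in the KO library and 1.70 FPKM in the WT library. Its plain ratio was 0.6 (0.462 to 0.774), and it lay within 1.5-fold after 0.5 FPKM was added. These genes do not stand for endothelial genes at large: of the 23 endothelial markers, 16 had log2 ratios above 0. Over the 23, the interval of the ratio lay above 1 for 8 and below 1 for 3, against 17.7% and 22.3% of all genes compared. The genes compared were not matched to the markers in fragment number. Plvap, the fenestral diaphragm gene, measured 35.95 FPKM in the KO library and 27.3 FPKM in the WT library. Bmx, Ptprb, Epas1 and Sox17 were singled out after their values were seen.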
